A study of Rattus norvegicus with 6 samples.

Results

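Cells of the renal inner medulla live in a fluid far saltier than plasma and balance it with organic osmolytes, chiefly sorbitol, betaine, myo-inositol, taurine and glycerophosphocholine. The transcription factor Nfat5, also called TonEBP, is activated by hypertonicity and binds tonicity-responsive enhancers of genes that make or import these solutes. Its best known targets are aldose reductase (Akr1b1), which makes sorbitol, the betaine transporter Slc6a12 and the myo-inositol transporter Slc5a3.

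The genes described here are Nfat5, those targets, the taurine transporter Slc6a6, the neutral amino acid transporter Slc38a2, which is induced by hypertonic stress, and Hspa4l, a chaperone of the Hsp110 family first known in mouse as an osmotic stress protein. They were chosen by name, as all probe sets whose single annotated symbol was 1 of the 7 genes. Earlier results of these data were known when the genes were chosen, so their counts are a description only. Of the 7 genes 6 were measured, by 10 of the 31042 tested probe sets, and Slc6a12 was not analysed here. In all, 14217 genes had a probe set with 1 symbol.

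The IMCD group was the fraction of digested inner medulla enriched in inner medullary collecting duct cells by low-speed centrifugation, and the nonIMCD group was the cells left in the supernatant, with 3 arrays each. All rats were male Sprague-Dawley animals injected intraperitoneally with 1 mg of furosemide, a loop diuretic, 30 min before death, and both fractions went through the same 75 min digestion at 37 °C with collagenase B and hyaluronidase. No array came from rats without furosemide or from undigested tissue, so what these steps did to the genes described was not tested. Rats of IMCD replicate 1 were labelled as 6 weeks old and those of all other arrays as 10 weeks old. By its design text the study holds 3 IMCD and nonIMCD pairs, with the nonIMCD cells taken from the supernatant of the IMCD preparation, but does not say which arrays form a pair, and the fit took no account of pairs. The labels name 7 rats without saying how they were pooled, and nothing says that the arrays of a fraction came from separate animals, so the p-values measure the spread between these preparations.

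Values are the authors' scaled linear intensities, 1 per probe set and array. Differences are IMCD minus nonIMCD in log2(intensity + 16), from limma's moderated test over all probe sets with Benjamini-Hochberg adjustment, and a gene is called where adjusted p is under 0.05. The intensity of 1 probe set cannot be set against that of another.

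The fractions carried the markers of their labels. Of 10 principal cell genes 9 were higher in IMCD and 0 lower, with summed intensities of 196797 to 208017 on IMCD arrays and 89224 to 118669 on nonIMCD arrays. Aqp2 was not called (0.29, limma adjusted p = 0.261), with means of 52574 in IMCD and 43299 in nonIMCD. All 3 measured thin limb genes, all 7 endothelial genes and all 6 leukocyte genes were lower in IMCD, as were 4 of 7 interstitial and pericyte genes and 3 of 6 thick ascending limb genes. Leukocyte genes summed to 568 to 914 on IMCD arrays and 49061 to 52715 on nonIMCD arrays, thin limb genes to 4571 to 7194 and 59569 to 82221, and endothelial genes to 9780 to 12073 and 50398 to 53461. Interstitial genes summed to 3816 to 3859 on IMCD arrays and 32205 to 35757 on nonIMCD arrays, and thick ascending limb genes to 1900 to 6315 and 7139 to 10700. The thick ascending limb genes Slc12a1, Umod and Egf were not called. Slc12a1 had 312, 1596 and 2280 on IMCD arrays 1 to 3, against 1832, 3299 and 3393 on nonIMCD arrays 1 to 3. Each sum serves to compare arrays and is weighted to its brightest probe sets, in the thin limb list Aqp1 (nonIMCD mean 63194). No marker of these lists was at 0 on any array. The log2 ratio of 3' to 5' signal over 3 rat control transcripts, a measure of RNA integrity, was 0.66 to 0.72 on IMCD arrays and 1.20 to 1.48 on nonIMCD arrays. The part of these marker and RNA quality shifts in the differences that follow was not tested, and in such mixed samples fewer cells of a type and less RNA per cell cannot be told apart.

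The regulator Nfat5 and the taurine transporter Slc6a6 were lower in IMCD by both of their probe sets. The chaperone Hspa4l was higher. Aldose reductase, the myo-inositol transporter and Slc38a2 were not called. By probe set, 4 of 10 were lower, against 13.4% of all probe sets tested, and 1 of 10 was higher, against 8.58% of all. The 4 lower ones are repeat probe sets of Nfat5 and Slc6a6, not separate genes. Among all genes, by 1 probe set each, 15.7% were lower and 10.0% higher. The median difference was -0.10 over the 10 probe sets and -0.10 over all probe sets. The plots of intensity and of difference show these sets.

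**Figure D1:**
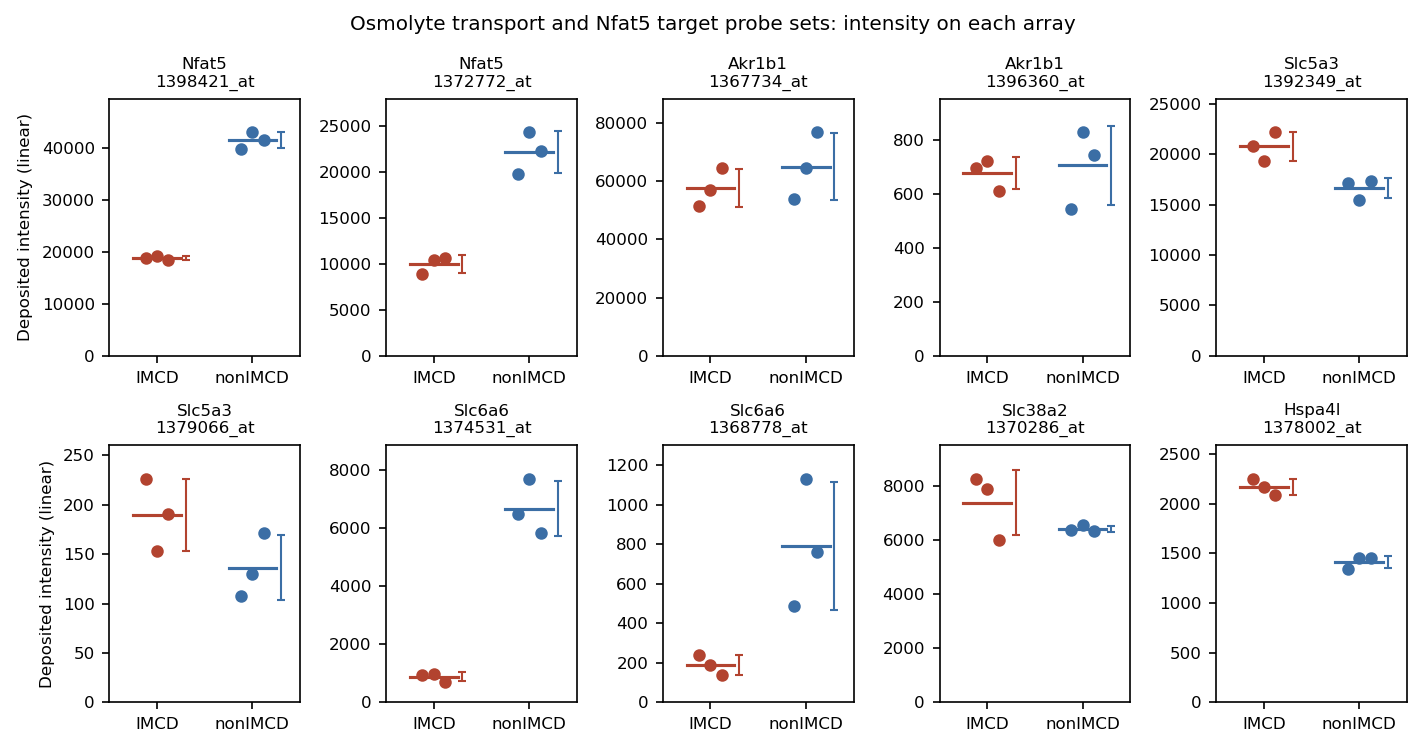
Deposited intensity (linear axis from 0) of each of the 10 probe sets on the 3 IMCD arrays (red) and 3 nonIMCD arrays (blue), 1 panel per probe set with its own axis; points are arrays, horizontal lines the means and error bars the SD. Both Nfat5 and both Slc6a6 probe sets have every IMCD array below every nonIMCD array, and Hspa4l and Slc5a3 1392349_at have the reverse.

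Nfat5 was lower in the collecting duct fraction. Its brighter probe set, 1398421_at, had intensities of 18917, 19226 and 18396 on IMCD arrays 1 to 3, against 39950, 43065 and 41672 on nonIMCD arrays 1 to 3. The groups lay far apart and each was tight, with means of 18846 ± 419 in IMCD, against 41562 ± 1560 in nonIMCD (SD, n = 3 each). The difference was -1.14 ± 0.11 (SE, limma adjusted p = 0.00181), so the probe set was 2.20 times as bright in nonIMCD.

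The second Nfat5 probe set, 1372772_at, had 8928, 10435 and 10648 in IMCD, against 19822, 24347 and 22373 in nonIMCD. Again no IMCD array reached the lowest nonIMCD array. Its difference was -1.15 ± 0.15 (SE, limma adjusted p = 0.00406), within the error of the first. Both stayed called in all 13 alternative settings, with differences of -1.28 to -0.85.

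Slc6a6, which carries taurine into cells with sodium and chloride, differed most. Probe set 1374531_at had 947, 995 and 715 in IMCD, against 6485, 7701 and 5852 in nonIMCD. Even the highest IMCD array was far below the lowest nonIMCD array. The means were 886 ± 150 in IMCD, against 6679 ± 940 in nonIMCD (SD, n = 3 each), a difference of -2.90 ± 0.19 (SE, limma adjusted p = 0.000531), or 7.45 times as bright in nonIMCD.

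The other Slc6a6 probe set, 1368778_at, was dimmer and more scattered, with 239, 190 and 141 in IMCD, against 486, 1131 and 760 in nonIMCD. The fractions did not overlap, although nonIMCD array 2 was well above nonIMCD array 1. The difference was -1.92 ± 0.35 (SE, limma adjusted p = 0.0137). With the replicate number as a block it was no longer called (adjusted p = 0.0523).

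Hspa4l (1378002_at) was the 1 probe set called higher. It had 2247, 2170 and 2083 in IMCD, against 1344, 1448 and 1451 in nonIMCD. The groups were tight and did not overlap, with means of 2167 ± 82.0 in IMCD, against 1414 ± 60.7 in nonIMCD (SD, n = 3 each). The difference was 0.61 ± 0.12 (SE, limma adjusted p = 0.016), or 1.53 times as bright in IMCD. It no longer passed without IMCD replicate 1 (0.58, adjusted p = 0.0631), without IMCD replicate 2 (0.61, adjusted p = 0.0549), without nonIMCD replicate 1 (0.57, adjusted p = 0.0601) and with the replicate block (0.61, adjusted p = 0.0564).

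**Figure D2:**
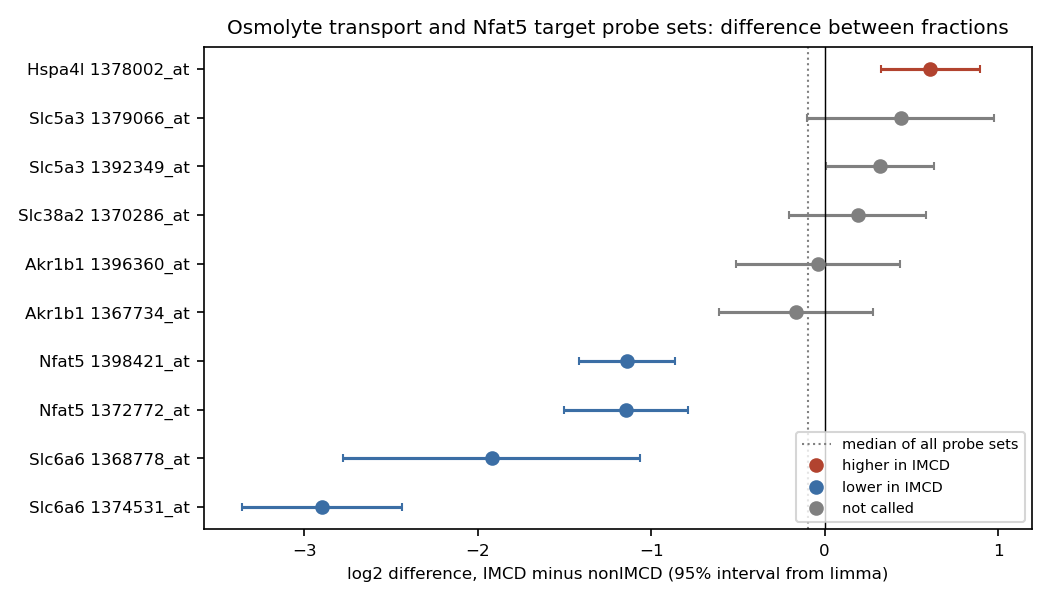
Difference in log2(intensity + 16), IMCD minus nonIMCD, of each probe set with its 95% interval from limma; red is higher, blue lower and grey not called, and the dotted line is the median of all probe sets (-0.10). The Slc6a6 and Nfat5 intervals lie wholly below 0, and both Akr1b1 intervals and that of Slc38a2 span 0.

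Aldose reductase, Akr1b1, reduces glucose to sorbitol. Its bright probe set, 1367734_at, had 51487, 56945 and 64318 in IMCD, against 53956, 64282 and 76653 in nonIMCD. The groups overlapped, and these values neared the brightest probe sets of the arrays, which reached 70016 to 111657. The difference was -0.17 ± 0.18 (SE, limma adjusted p = 0.565), with a 95% interval of -0.61 to 0.28.

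The dimmer Akr1b1 probe set, 1396360_at, had 697, 723 and 613 in IMCD, against 543, 829 and 746 in nonIMCD. The IMCD values lay inside the nonIMCD range. The difference was -0.039 ± 0.19 (SE, limma adjusted p = 0.909, 95% interval -0.51 to 0.43). The sign of both Akr1b1 differences turned with the scaling, to 0.12 and 0.25 under median centring of the arrays and to 0.061 and 0.15 after quantile normalization, none of them called.

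Slc5a3 brings myo-inositol into the cell with sodium. Probe set 1392349_at had 20840, 19284 and 22146 in IMCD, against 17143, 15483 and 17318 in nonIMCD. Every IMCD array was above every nonIMCD array, an order that 17.3% of all probe sets showed, yet the difference of 0.32 ± 0.13 was not called (SE, limma adjusted p = 0.135). Its 95% interval was 0.007 to 0.63. It passed under median centring (0.61, adjusted p = 0.0195), when dim probe sets were dropped (0.32, adjusted p = 0.048) and when an intensity trend was fitted (0.32, adjusted p = 0.0283), but not after quantile normalization (0.14, adjusted p = 0.458).

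The dim Slc5a3 probe set, 1379066_at, had 226, 153 and 190 in IMCD, against 108, 130 and 172 in nonIMCD. The groups overlapped at IMCD array 2 and nonIMCD array 3. The difference was 0.44 ± 0.22 (SE, limma adjusted p = 0.218, 95% interval -0.10 to 0.98).

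Slc38a2 (1370286_at), a sodium-coupled carrier of small neutral amino acids, had 8249, 7874 and 6002 in IMCD, against 6351, 6531 and 6314 in nonIMCD. IMCD replicate 3 was below all nonIMCD arrays and the other IMCD arrays above them. The difference was 0.19 ± 0.16 (SE, limma adjusted p = 0.455, 95% interval -0.21 to 0.59).

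Of the 10 probe sets 4 had every IMCD array below every nonIMCD array, against 24.9% of all probe sets, and 2 had the reverse order, against 17.3%. The 4 were repeat probe sets of Nfat5 and Slc6a6, and the 2 were those of Hspa4l and Slc5a3 (1392349_at). The order of the differences by gene, from the brightest probe set of each, was Slc6a6, Nfat5, Akr1b1, Slc38a2, Slc5a3 and Hspa4l. The 95% intervals of Slc6a6 and Nfat5 overlapped neither each other nor those of the remaining genes, but the dimmer Slc6a6 probe set (-2.78 to -1.07) overlapped Nfat5 (-1.42 to -0.86). Neighbours among the other 4 genes had overlapping intervals.

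**Figure D3:**
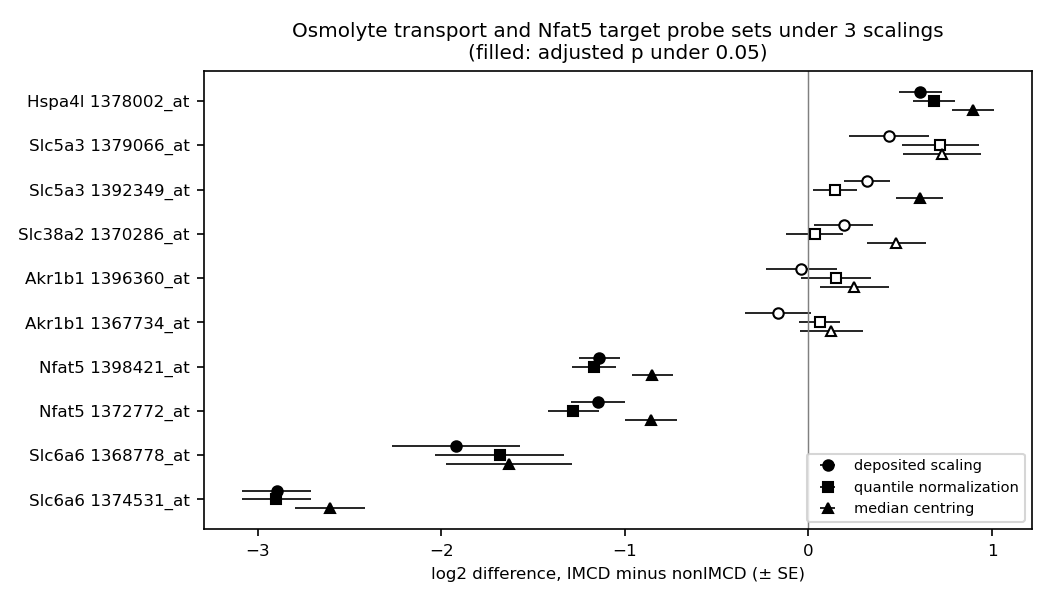
Difference (log2, IMCD minus nonIMCD, with SE bars) of each probe set under the deposited scaling (circles), quantile normalization (squares) and median centring of each array (triangles); filled symbols have adjusted p under 0.05. Nfat5 and Slc6a6 are below 0 and filled under all 3, Hspa4l is above 0 and filled under all 3, and Akr1b1 lies on either side of 0.

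The promoter of Slc6a6, the gene with the largest difference, is shown because it holds a tonicity-responsive enhancer (TonE) motif. The RefSeq table of promoters (GRCr8) matched 5 of the 7 genes (Slc6a12, Slc5a3, Slc6a6, Slc38a2 and Hspa4l). The 250 bases before each start were searched on both strands for TonE and for TGGAAA, the letters with which that motif begins. Only Slc6a6 held either, 1 TonE match on the minus strand at bases -161 to -151 from the start, overlapping its 1 TGGAAA match. Sequence outside these windows was not searched, so a gene without a match here may hold TonE elsewhere. TonE was found in 5.17% and TGGAAA in 19.7% of 33469 promoter windows of that length. The match is a description of the sequence and does not show a site of binding. The window lies at chr4:125752252-125752501, plus strand, and capitals mark the motif, printed 5′ to 3′ as read on the plus strand.
Slc6a6: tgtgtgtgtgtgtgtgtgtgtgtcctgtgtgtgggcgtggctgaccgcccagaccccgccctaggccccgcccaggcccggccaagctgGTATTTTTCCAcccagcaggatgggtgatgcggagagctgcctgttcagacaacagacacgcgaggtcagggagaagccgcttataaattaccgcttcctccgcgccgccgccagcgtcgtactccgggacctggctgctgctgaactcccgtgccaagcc

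The wider pathway moved in both directions. In 5 further lists 63 of 68 genes were measured, each by its brightest probe set, and 14 were higher, 15 lower and 34 not called in IMCD. Among all genes 10.0% were higher and 15.7% lower. The lists were chosen with earlier results of these data known, so their counts are a description only. Under median centring the split of the pathway genes was 21 higher and 10 lower. That scaling gave 5389 higher and 2652 lower over all probe sets, against 2663 and 4163 as deposited. Without IMCD replicate 1 the pathway counts were 8 higher and 9 lower. The higher pathway count was 9 without IMCD replicate 2, and the lower was 10 without nonIMCD replicate 2. The plot of pathway genes shows each gene by list.

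**Figure D4:**
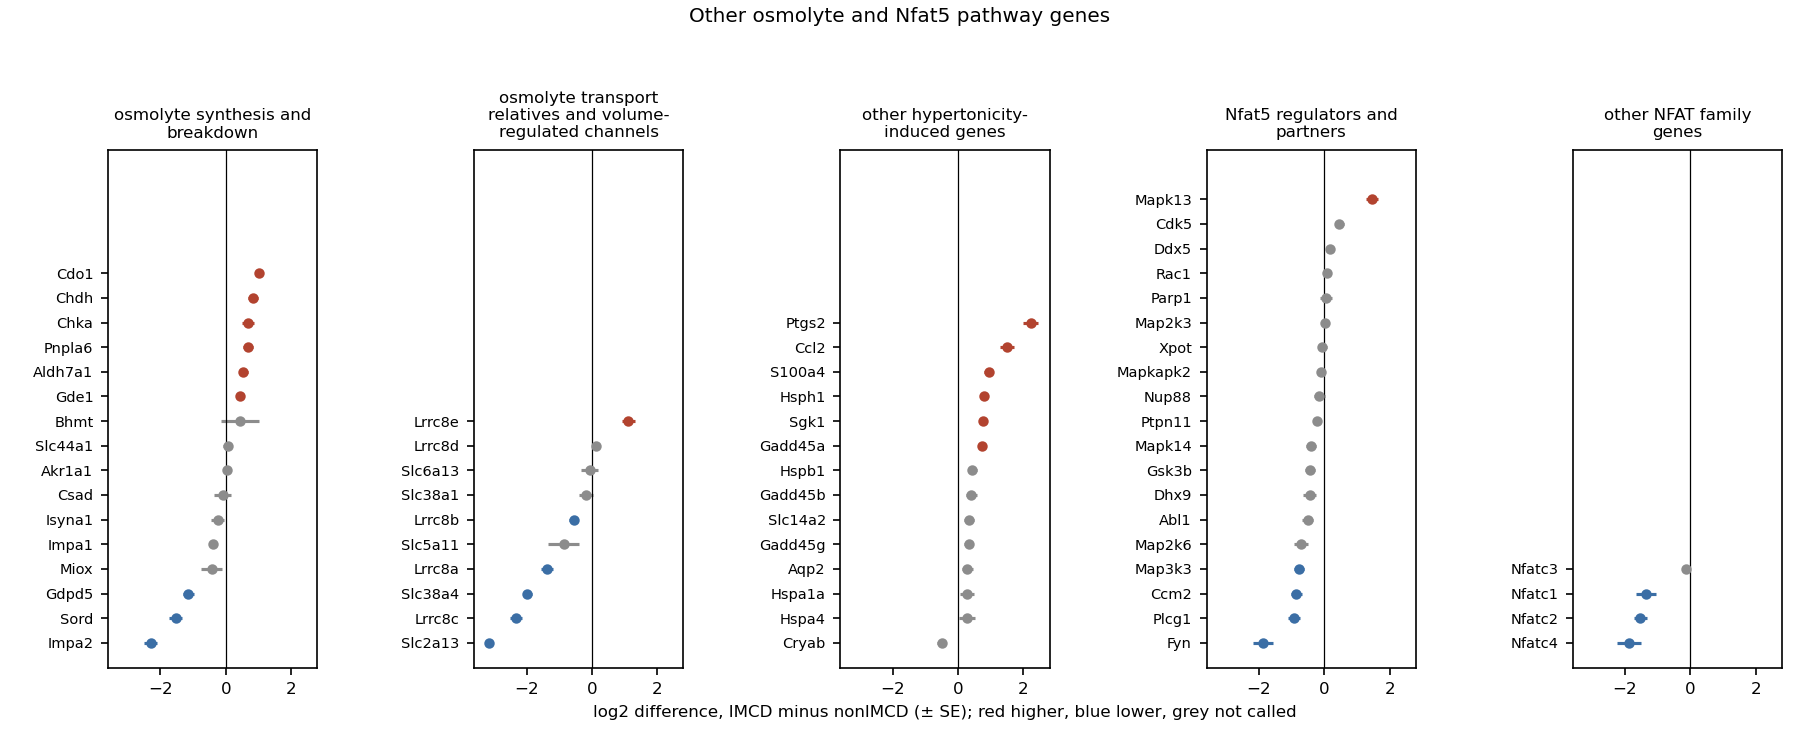
Difference (log2, IMCD minus nonIMCD, ± SE) of each measured gene of the 5 further lists; red is higher, blue lower and grey not called. Lists of synthesis, transport and regulators hold calls of both signs, the hypertonicity-induced list has 6 higher and 0 lower, and the NFAT family list has 3 lower and 0 higher.

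Among 16 genes of osmolyte synthesis and breakdown 6 were higher, against 10.0% of all genes, and 3 lower, against 15.7%. The other 7 were not called, and the list median was 0.054 against -0.093 over all genes. The largest excess was that of Cdo1, the cysteine dioxygenase of taurine synthesis, with 17325, 17302 and 17901 in IMCD, against 8478, 7899 and 9553 in nonIMCD. The fractions were separate for Cdo1, by 1.02 ± 0.13 (SE, limma adjusted p = 0.00387). Chdh, the choline dehydrogenase of betaine synthesis, differed by 0.83 ± 0.15 (limma adjusted p = 0.0142).

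The 3 lower genes act on inositol, sorbitol and glycerophosphocholine. Impa2, which frees myo-inositol from its phosphate, averaged 296 ± 26.6 in IMCD, against 1539 ± 337 in nonIMCD (SD, n = 3 each), a difference of -2.29 ± 0.20 (SE, limma adjusted p = 0.00131). Sord, which oxidises sorbitol to fructose, differed by -1.53 ± 0.19 (limma adjusted p = 0.00396), and a second, dimmer probe set of it by -3.15 (adjusted p = 0.0204). Gdpd5, which degrades glycerophosphocholine, differed by -1.14 ± 0.17 (limma adjusted p = 0.00753). The largest difference among those not called was that of Bhmt (0.43, adjusted p = 0.651), which was dim. The count of higher genes in this list was 1 without IMCD replicate 1 or 2, 3 without IMCD replicate 3, 2 without nonIMCD replicate 1 or 3, and 3 without nonIMCD replicate 2 or with the replicate block. Chdh was not called without IMCD replicate 1 or 2 or nonIMCD replicate 1 (adjusted p = 0.0554, 0.0515 and 0.0503).

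The volume-regulated anion channel releases osmolytes from swollen cells. Of 10 measured transport relatives and subunits of this channel 1 was higher, against 10.0% of all genes, and 5 lower, against 15.7%. The other 4 were not called, and the list median was -0.71. Slc2a13, a proton-coupled myo-inositol transporter, had 475, 434 and 447 in IMCD, against 4389, 4205 and 3779 in nonIMCD. It was 8.84 times as bright in nonIMCD, a difference of -3.14 ± 0.12 (SE, limma adjusted p = 0.000204), and its dimmer probe set was also lower (-2.51, adjusted p = 0.00099). Of the myo-inositol carriers measured, it was the 1 that was called.

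The channel subunits divided. Lrrc8a, the subunit that the channel requires, differed by -1.37 ± 0.19 (SE, limma adjusted p = 0.0055) and Lrrc8c by -2.32 ± 0.19 (adjusted p = 0.00103). Lrrc8b was also called lower (-0.56 ± 0.15, SE, limma adjusted p = 0.0433) and Lrrc8d was not called (0.14, adjusted p = 0.469). Of the other Lrrc8a probe sets, both dimmer, 1 differed by -2.59 (adjusted p = 0.00352) and 1 by -0.26 (adjusted p = 0.243). Lrrc8e was the subunit called higher, with 1159, 1002 and 1103 in IMCD, against 512, 614 and 385 in nonIMCD (1.11 ± 0.20, SE, limma adjusted p = 0.013), and it was not called without IMCD replicate 1 (adjusted p = 0.0504). Slc38a4, a relative of Slc38a2, differed by -1.97 ± 0.13 (adjusted p = 0.000538), with a dim IMCD mean of 70.0. Slc5a11, a second sodium and myo-inositol carrier, was dim in both fractions and not called (-0.87, adjusted p = 0.255).

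Of 14 measured other hypertonicity-induced genes 6 were higher, against 10.0% of all genes, and 0 lower, against 15.7%. The other 8 were not called, and the list median was 0.42. At an unadjusted p under 0.05 in the same limma fit, 8 genes were higher and 1 lower. Of all 14217 genes 2203 were higher and 3390 lower at that threshold. The lower gene was the small heat shock protein Cryab (-0.50 ± 0.14, SE, limma adjusted p = 0.0502). It was called lower with a pseudocount of 64, with a filter on dim probe sets and with a fitted intensity trend. Ptgs2, the inducible cyclooxygenase of prostaglandin synthesis, had 9582, 7366 and 6939 in IMCD, against 2186, 1545 and 1391 in nonIMCD (2.22 ± 0.23, SE, limma adjusted p = 0.00202). The chemokine Ccl2 differed by 1.505 ± 0.22 (adjusted p = 0.00666). These 2 genes are known also from inflammation.

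S100a4, a calcium-binding protein, differed by 0.93 ± 0.15 (SE, limma adjusted p = 0.00989), and the chaperone Hsph1, of the same Hsp110 family as Hspa4l, by 0.80 ± 0.12 (adjusted p = 0.00793). A second Hsph1 probe set differed by 1.34 (adjusted p = 0.00304). The kinase Sgk1, which regulates sodium transport, had 29090, 28899 and 27801 in IMCD, against 15964, 16907 and 17547 in nonIMCD, a difference of 0.77 ± 0.11 (SE, limma adjusted p = 0.00721). The urea transporter Slc14a2 counted as not called by its brightest probe set (0.33, adjusted p = 0.191), while 3 of its 4 dimmer probe sets were higher (1.57, 1.504 and 1.02, adjusted p = 0.0142, 0.00367 and 0.00403). Under median centring 11 genes of the list were higher, while higher calls over all probe sets rose from 2663 to 5389 of 31042.

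Of 19 measured regulators and partners of Nfat5 1 was higher, against 10.0% of all genes, and 4 lower, against 15.7%. The other 14 were not called, and the list median was -0.23. The stress kinase Mapk13 had 442, 596 and 599 in IMCD, against 179, 170 and 211 in nonIMCD (1.46 ± 0.17, SE, limma adjusted p = 0.0033). The Src family kinase Fyn differed by -1.87 ± 0.31 (adjusted p = 0.0102), with its dimmer probe set at -2.55 (adjusted p = 0.00331). Phospholipase Plcg1 (-0.91 ± 0.18, adjusted p = 0.0187), the scaffold Ccm2 (-0.85 ± 0.17, adjusted p = 0.0194) and the kinase Map3k3, which binds it (-0.77 ± 0.15, adjusted p = 0.0199), were also lower. Of the dimmer Map3k3 probe sets 1 was lower (-0.76, adjusted p = 0.0415) and the others were not called (-0.41 and -0.32). Map2k6 was not called (-0.71, adjusted p = 0.075). The balance depended on the scaling, as over all probe sets (2663 higher and 4163 lower as deposited, 5389 and 2652 under median centring). Under median centring 3 regulators and partners were higher and 1 lower. The higher calls numbered 2 with a pseudocount of 64, quantile normalization, a filter on dim probe sets or a fitted intensity trend. The lower calls numbered 1 without IMCD replicate 1, 2 without IMCD replicate 3 or without nonIMCD replicate 1 or 2, and 7 with a filter on dim probe sets or a fitted intensity trend.

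Of the 4 calcineurin-regulated NFAT genes, relatives of Nfat5, 3 were lower, against 15.7% of all genes, and 0 higher, against 10.0%. The list median was -1.45. At an unadjusted p under 0.05 in limma the counts were also 3 lower and 0 higher. Of all 14217 genes 3390 were lower and 2203 higher at that threshold. Nfatc2 had 399, 555 and 437 in IMCD, against 1413, 1555 and 1137 in nonIMCD (-1.53 ± 0.19, SE, limma adjusted p = 0.00386). Nfatc4 differed by -1.87 ± 0.37 (adjusted p = 0.0187) and Nfatc1 by -1.37 ± 0.30 (adjusted p = 0.0265), whereas Nfatc3 was not called (-0.15, adjusted p = 0.424). Dimmer probe sets of Nfatc2 (0.27, adjusted p = 0.858) and Nfatc4 (-0.56, adjusted p = 0.45) were not called. The count of lower genes was 1 without IMCD replicate 1 or nonIMCD replicate 2.

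Some genes outside the pathway had array patterns close to those described, measured as the root mean square difference of mean-centred log2 values over the 6 arrays among 9578 genes of at least 8 in mean log2 value. Nearest to Slc6a6 were the organic anion transporter Slco2b1 (0.076), the lipid carrier Apoe (0.12) and the collagen Col3a1 (0.14), an interstitial gene of the marker list. Nearest to Nfat5 were Lrrc42 (0.049), Dtnb (0.052) and Rnf130 (0.054). Nearest to Hspa4l were Nipa2 (0.026), Ssx2ip (0.032) and Nbeal2 (0.036). For Akr1b1 they were Plrg1 (0.027), Dph2 (0.031) and Ipo9 (0.037), for Slc5a3 Dera (0.019), Nucks1 (0.027) and Cfap36 (0.031), and for Slc38a2 Thnsl1 (0.062), Ier3 (0.063) and Il15 (0.065).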

How the data were processed

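Per the labels, RNA of 3 IMCD and 3 nonIMCD preparations was hybridised to Affymetrix arrays, 1 preparation per array. The deposited file holds linear intensities that the authors had scaled: the mean after trimming 2% at each end was 1000.3 to 1000.4 on every array. The sources used here name no software for this step. Each of the 6 value columns belongs to 1 sample. Of 31099 probe sets 57 were controls and left out. Gene names came from the platform annotation, and 20826 tested probe sets had 1 symbol.

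Intensities were analysed as log2(value + 16), with no filter, in limma 3.58.1 (R 4.3.3; lmFit and eBayes, two-sided, no covariate). This scale understates differences of dim probe sets. The number of arrays limits the precision.

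The genes and lists were chosen with earlier results of these data known. Named pathway genes were, per list, up to 5 called genes with the largest difference and the largest not called. Further probe sets, those of Slc14a2 among them, and the genes Lrrc8b and Lrrc8d were added after values were seen. Alternatives changed the pseudocount, scaling, dim filter, trend, replicate block and arrays.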

Additional observations from a re-analysis of the deposited data

How the results depend on the processing

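Under the 13 alternatives the 2 Nfat5 probe sets and Slc6a6 1374531_at stayed called. The number of probe sets of the described genes called higher, 1 as reported, was 2 under median centring, with a filter on dim probe sets and with a fitted intensity trend, 0 with the replicate block, and 0 to 1 without 1 array. Leaving out 1 array gave 8 to 11 pathway genes higher and 9 to 14 lower, and over all probe sets 1537 to 2248 higher and 2647 to 3221 lower. Under median centring 5389 probe sets were higher and 2652 lower, 67.0% higher against 39.0% as deposited (2663 higher, 4163 lower) and 52.1% after quantile normalization. These scalings moved the median of all probe sets by 0.29 and 0.15. Signs turned for Akr1b1 1367734_at with median centring (0.12) and quantile normalization (0.061), for Akr1b1 1396360_at with these (0.25 and 0.15) and without IMCD replicate 3, nonIMCD replicate 2 or nonIMCD replicate 3 (-0.21 to 0.0845 over the settings without 1 array), for Bhmt without nonIMCD replicate 2 (-0.17 to 0.83 over those settings) and for Nfatc3 with median centring (0.14). Calls of Ccm2, Map3k3, Plcg1 and Nfatc1 were lost with median centring and without some arrays, and Nfatc4 without some arrays. The cause of these changes was not tested. The study's text states that the fractions came in 3 pairs, and the labels number the arrays 1 to 3 in each fraction without tying the numbers to pairs. Deviations of same-numbered arrays from their fraction means correlated at 0.04, 0.035 and 0.061, each array correlating best with its own number. Values this small do not settle whether the numbers mark the pairs. By the labels rats of IMCD replicate 1 were 6 weeks old and those of nonIMCD replicate 1 were 10 weeks old. With the replicate block 1831 probe sets were higher and 2993 lower. In that setting 3 probe sets of the described genes were lower, and 11 pathway genes were higher and 14 lower. Dim probe sets such as Slc5a3 1379066_at are limited by signal.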
